A study of Danio rerio with 13 samples.

Results

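Amino acid transporters are the membrane proteins that move amino acids, small peptides and related molecules such as taurine, creatine and GABA into, out of and within cells. The genes described here are those whose zebrafish symbol places them in the solute carrier (SLC) families 1, 3, 6, 7, 15, 36, 38 or 43. They are 86 of the 32105 gene identifiers in the count table, and 26269 identifiers (81.8%) had a symbol to be matched on. The 86 members carry 71 distinct symbols, since 29 identifiers share a symbol with a paralog, and such paralogs are told apart below by their Ensembl identifier. Among the members are 4 of the SLC6 family that carry monoamines such as serotonin. One member, SLC7A6OS (ENSDARG00000010596), matches by name alone. It is a neighbour of slc7a6 in the RefSeq gene table and is not a carrier, its yeast homologue Iwr1 being a factor for the nuclear import of RNA polymerase.

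Muscle RNA was sequenced from male AB zebrafish (Danio rerio) that were 3 months old. The 13 libraries came from 5 wild type fish, 5 fish labelled tert+/- and 3 fish labelled tert-/-, so that all groups share strain, sex, age and tissue. Replicate numbers below were assigned here within each genotype, in the order of the samples in the series. Telomerase, the enzyme that maintains chromosome ends, has its catalytic subunit encoded by tert, and the study used the mutant line tert hu3430 as a model of telomeric ageing. The sources used here do not give the relation of the fish to each other, and p-values set differences against the spread between these libraries. Total counts ranged from 10.6 to 47.5 M, and the 86 members together held 0.0489% to 0.0829% of them (median 0.0592%).

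Muscle fibres take up amino acids for protein synthesis and release others, chiefly glutamine and alanine, to the rest of the body. Carriers of the SLC38 family couple neutral amino acids such as glutamine to sodium, and those of the SLC1 family carry glutamate or exchange small neutral amino acids. Many SLC7 carriers work as light chains that need a heavy chain of the SLC3 family to reach the membrane, while the cationic SLC7 carriers for arginine and lysine work alone. Of the SLC43 family, SLC43A1 and SLC43A2 let large neutral amino acids such as leucine pass without sodium. SLC6 carriers use sodium and chloride, and SLC15 and SLC36 carriers use protons. In mammals, amino acids that reach the lysosome and cytosol are read by mTORC1, and their lack is read by the kinase GCN2 and the factor ATF4, which raises several transporter genes.

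Facts of the whole series that touch the members were as follows. A list of 17 skeletal muscle marker genes held 23.46% to 42.08% of counts, so the tissue label was borne out in every library. In 3 libraries (replicate 5 of wild type, replicate 1 of tert+/- and replicate 1 of tert-/-), a list of 26 testis and germ line genes held 0.068%, 0.1743% and 0.3444% of counts, against at most 0.0054% in the other 10. Each of these 3 also had the lowest share of muscle genes within its genotype (36.54%, 23.46% and 31.39%). Their TMM scaling factors (trimmed mean of M-values, set so that the bulk of genes is level between libraries) were 1.07, 2.03 and 2.30, against 0.771 to 0.922 elsewhere. The comparisons between genotypes were therefore fitted with and without them, and a value is said to be without the 3 libraries where they were left out. The TERT transcript itself (ENSDARG00000042637) ranged from 4.90 to 9.73 in TMM-scaled CPM (counts scaled to the library total) in wild type, from 5.69 to 7.82 in tert+/- and from 2.02 to 5.996 in tert-/-, so the tert-/- range overlapped both other groups.

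In wild type muscle the SLC38 family dominated. Its 13 members held 64.0% of the summed member CPM and 49.6% of the summed length-scaled level, which is reads scaled to gene length in kilobases and to library total (RPKM), recalculated here from each library's own total. Levels of different genes are compared in this paragraph and the next on that RPKM scale. The sodium coupled neutral amino acid carrier SLC38A2 (ENSDARG00000045886), which in mammals is induced by amino acid shortage, stood first at 31.7 ± 9.94 RPKM (SD, n = 5). The glutamine carrier gene slc38a5b (ENSDARG00000014587) followed at 18.8 ± 2.42 RPKM, and the heavy chain gene SLC3A2 (ENSDARG00000037012), whose protein is known as CD98, at 11.8 ± 4.05 RPKM. The glutamine carrier gene SLC38A3 (ENSDARG00000091061), whose mammalian protein exchanges glutamine and sodium for protons, was at 9.20 ± 1.17 RPKM. SLC7A6OS was at 8.51 ± 1.91 RPKM and the leucine carrier gene SLC43A2 (ENSDARG00000036848) at 6.67 ± 2.07 RPKM. Neighbours in this order overlapped in their fish, while every fish had more slc38a5b than any fish had SLC38A3.

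The next 6 genes lay between 2.56 and 4.57 RPKM. They were the small neutral amino acid exchangers SLC1A4 (4.57 ± 1.10 RPKM) and SLC1A5 (3.73 ± 1.64 RPKM), the neutral carrier SLC38A4 (4.27 ± 1.22 RPKM), the arginine and lysine carrier slc7a1a (3.13 ± 1.36 RPKM), the taurine carrier SLC6A6 (ENSDARG00000098438, 3.09 ± 0.49 RPKM) and the creatine carrier SLC6A8 (2.56 ± 4.12 RPKM). For SLC6A8 the SD exceeded the mean, and wild type replicate 5, which held testis transcripts, stood far above the other fish. Altogether 23 of the 86 members had a wild type mean of at least 1 RPKM. Low levels included the light chain genes SLC7A5 (0.12 ± 0.12 RPKM) and slc7a11 (0.01 ± 0.01 RPKM), which code for the large neutral amino acid and the cystine exchangers, and both stayed below the expression filter. Whether other paralogs of these light chains lack a symbol was not examined.

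**Figure D1:**
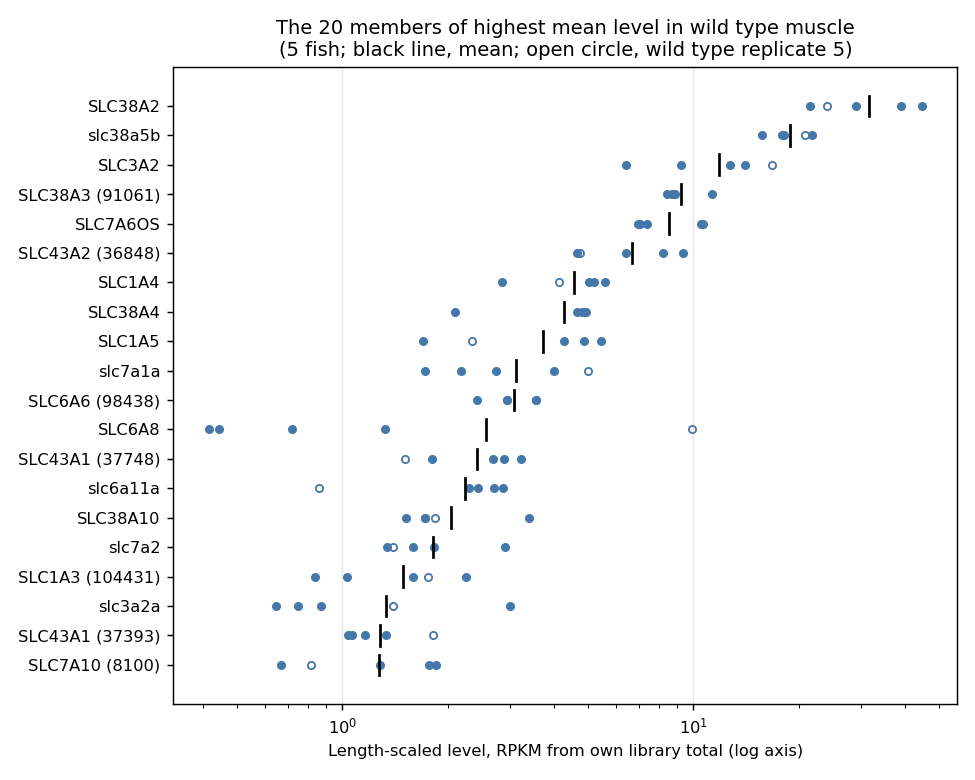
Length-scaled level (RPKM from each library's own total, log axis) of the 20 members of highest mean in 5 wild type fish. Points are fish, the open circle is wild type replicate 5 with testis transcripts, and the black line is the mean. SLC38A2 leads at 31.7 RPKM, and the open circle of SLC6A8 (mean 2.56 RPKM) lies far above its other points.

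The comparisons asked which genes differ in muscle with 1 or 2 mutant tert alleles. Counts were compared with edgeR's quasi-likelihood test in 1 fit of all 13 libraries. Of the 86 members, 70 passed the filter on low counts and were tested among 19407 genes, with p-values adjusted over all of them (Benjamini-Hochberg) and a threshold of 0.05. Without the 3 libraries with testis transcripts, 61 members were tested among 17970 genes. A member that is high in a single group can pass such a filter through that group, so counts over the tested members are not counts over all 86.

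No member passed the threshold in tert-/- against wild type (0 of 70, 0.0% of all genes), in tert+/- against wild type (0 of 70, 0.0% of all genes), in tert-/- against tert+/- (0 of 70, 0.0% of all genes) or in the trend over 0, 1 and 2 mutant alleles (0 of 70, 0.0% of all genes). At an unadjusted p under 0.05 by edgeR, 4 of 70 members (5.71%, with 2.56% of all genes) differed in tert-/- against wild type, 5 (7.14%, with 2.87%) in tert+/- against wild type, 3 (4.29%, with 1.46%) in tert-/- against tert+/- and 4 (5.71%, with 3.18%) in the trend. All sizes below are therefore values that did not pass the threshold in edgeR. The test was of limited power, since in counts simulated from these libraries edgeR recovered 0% of 2-fold and 7% of 4-fold changes in tert-/- against wild type, and 2% and 40% without the 3 libraries. The spread between libraries within a genotype, as edgeR's common biological coefficient of variation, was 63.94% over 13 libraries and 37.43% over 10.

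The glutamine carrier gene SLC38A3 (ENSDARG00000091061) had the smallest p of the members in tert-/- against wild type. It and SLC15A4 had been picked for description because earlier results of these data gave them small p-values, so the values here describe them and are no independent support. In wild type replicates 1 to 5, SLC38A3 stood at 79.8, 72.2, 69.1, 100.02 and 58.6 TMM-scaled CPM. In tert+/- replicates 1 to 5 it stood at 29.1, 67.8, 50.5, 59.7 and 55.1 CPM, and in tert-/- replicates 1 to 3 at 21.4, 32.9 and 43.2 CPM. All 3 tert-/- libraries lay below all 5 wild type libraries, while tert+/- overlapped both. On this TMM scale the lowest library of each genotype was the one with testis transcripts.

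Mean levels of SLC38A3 and their SDs were 75.9 ± 15.5 CPM in the 5 wild type, 52.4 ± 14.5 CPM in the 5 tert+/- and 32.5 ± 10.9 CPM in the 3 tert-/- libraries. In bulk muscle, fewer cells of a type and less RNA per cell cannot be told apart. The log2 fold change was −1.23 (95% interval −1.90 to −0.55) in tert-/- against wild type, −0.53 (−1.09 to 0.02) in tert+/- against wild type and −0.69 (−1.35 to −0.03) in tert-/- against tert+/-. The fitted slope was −0.60 per mutant allele (−0.92 to −0.29). The edgeR adjusted p of SLC38A3 was 0.992 in tert-/- against wild type and 0.981 in the trend, over all 19407 genes. Without the 3 libraries the log2 fold changes were −1.04, −0.45 and −0.59 in the same order and the slope was −0.51 (−0.73 to −0.29). Over 26 alternative settings the value against wild type in tert-/- kept its sign and ranged from −1.50 to −0.79.

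Plain CPM, without TMM factors, gave SLC38A3 values of 60.7 to 81.3 in wild type, 42.5 to 62.5 in tert+/- and 30.2, 33.3 and 49.0 in tert-/-. On plain CPM no library with testis transcripts was the lowest of its genotype, and tert-/- replicate 1 held the 49.0. Here too the tert-/- libraries lay below every wild type library, and SLC38A3 was the 1 tested member of 70 (1.43%, with 0.247% of all genes) for which this held. On the TMM scale it held for 3 members (4.29%, with 0.984% of all genes), namely SLC38A3, SLC15A4 and slc7a1a. DESeq2 without the 3 libraries called SLC38A3 in the trend (slope −0.51, SE 0.11, DESeq2 adjusted p = 0.0476), 1 of 85 members (1.18%, with 0.00386% of all genes). In simulated counts of that setting, with changes placed in tert-/- alone, DESeq2 recovered 4% of 2-fold and 37% of 4-fold changes. It also called 19 unchanged genes. In the same counts edgeR called no unchanged gene but recovered 0% of either change. The changed genes were drawn at random from all tested genes, so these shares are not the power for SLC38A3 itself. Neither the lack of an edgeR call nor the DESeq2 call in that setting decides about SLC38A3. The paralog of the same symbol, SLC38A3 (ENSDARG00000027065), was low at 1.01 ± 0.94 CPM in wild type, 1.18 ± 0.62 in tert+/- and 1.82 ± 1.61 in tert-/-. Libraries with testis transcripts held its highest wild type and tert-/- values. Wild type replicate 5 stood at 2.65 CPM, with 0.39 to 0.95 CPM in replicates 1 to 4. Likewise tert-/- replicate 1 stood at 3.68 CPM, with 0.97 and 0.82 CPM in replicates 2 and 3.

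For the most abundant SLC38 genes other than SLC38A3, the sign in tert-/- against wild type depended on the 3 libraries with testis transcripts. SLC38A2 stood at 196.4 ± 71.9 CPM in wild type, 200.1 ± 90.7 in tert+/- and 189.7 ± 100.2 in tert-/-, a log2 fold change of −0.05 (−1.08 to 0.98) in tert-/- against wild type and 0.20 without the 3 libraries. For slc38a5b the means in the same order were 86.9, 82.6 and 78.3 CPM and the log2 fold change was −0.15 (−1.06 to 0.75), and 0.25 without the 3. SLC38A4 had means of 25.4, 29.3 and 20.9 CPM and a log2 fold change of −0.28 (−1.48 to 0.92), and 0.13 without the 3. Each of these intervals held 0. The low paralog SLC38A5 (ENSDARG00000009901) had means of 2.56, 2.46 and 1.66 CPM and a log2 fold change of −0.63 (−1.47 to 0.21), and −0.49 without the 3. SLC38A9, whose mammalian protein senses arginine at the lysosome, differed by 0.03 (−0.83 to 0.89), and by 0.12 without the 3. Of the 12 tested SLC38 members, 4 had positive and 8 negative values in tert-/- against wild type (52.3% of all genes were negative), with a median of −0.10, and 6 had positive and 6 negative values in tert+/- against wild type (49.8% of all genes were negative), with a median of −0.02. With the 3 libraries left out 8 of 11 were positive in tert-/- (47.2% of all genes were), with a median of 0.13, and 6 of 11 in tert+/- (50.4% of all genes were), with a median of 0.09.

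SLC1A4, SLC1A5, SLC6A8 and SLC7A6OS had intervals that held 0 in both comparisons with wild type. The small neutral amino acid exchanger genes SLC1A4 and SLC1A5 had means of 15.05, 21.4 and 14.5 CPM and of 13.0, 13.9 and 15.2 CPM in wild type, tert+/- and tert-/-. For SLC1A4 the log2 fold change in tert-/- against wild type was −0.06 (−1.21 to 1.09), and 0.23 without the 3 libraries. For SLC1A5 it was 0.23 (−1.06 to 1.51), and 0.43 without the 3. The creatine carrier gene SLC6A8 had means of 5.39, 2.53 and 1.39 CPM, of which the wild type mean rested on replicate 5, and SLC7A6OS had means of 20.7, 19.03 and 15.8 CPM.

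**Figure D2:**
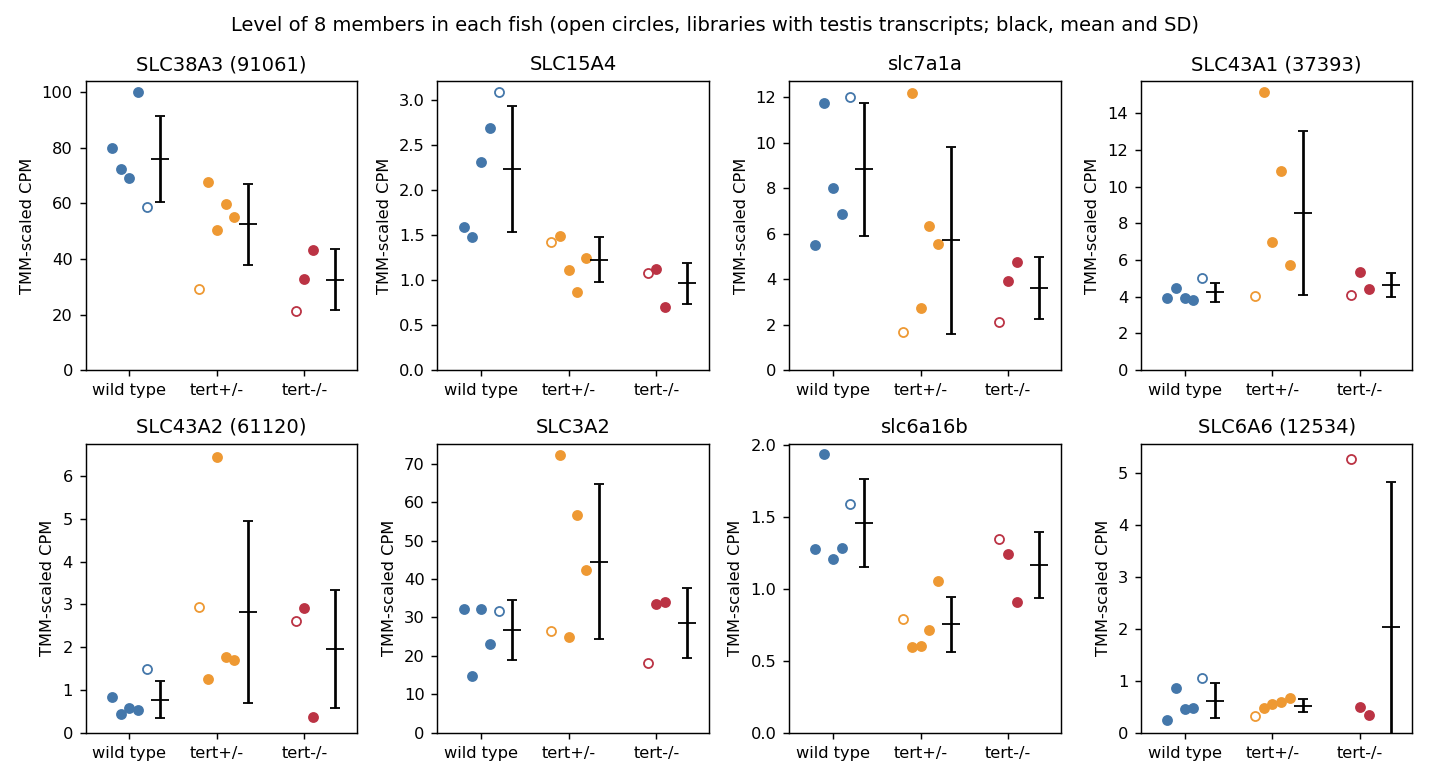
TMM-scaled CPM (linear axes from 0) of 8 members in each fish by genotype, with group mean and SD in black and the libraries with testis transcripts as open circles. In SLC38A3 the 3 tert-/- fish (21.4 to 43.2 CPM) lie below the 5 wild type fish (58.6 to 100.02 CPM), while the tert-/- mean of SLC6A6 rests on 1 open circle at 5.26 CPM, its SD bar running below the axis.

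The peptide and histidine carrier gene SLC15A4 (ENSDARG00000102612), whose mammalian protein sits in the endolysosome, was counted 624 times in all. It stood at 1.59, 1.48, 2.31, 2.69 and 3.09 CPM in wild type replicates 1 to 5. In tert+/- replicates 1 to 5 it stood at 1.42, 1.49, 1.12, 0.87 and 1.25 CPM, and in tert-/- replicates 1 to 3 at 1.08, 1.12 and 0.71 CPM. The tert-/- libraries lay below all of wild type, and tert+/- replicate 2 alone reached into the wild type range. Its log2 fold change was −1.20 (−1.93 to −0.47) in tert-/- against wild type and −0.85 (−1.47 to −0.24) in tert+/- against wild type, and without the 3 libraries it was −1.11 and −0.76.

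The grading of SLC15A4 depended on scale. On plain CPM the 3 libraries with testis transcripts held its highest values, 3.31 in wild type replicate 5, 2.88 in tert+/- replicate 1 and 2.47 in tert-/- replicate 1, and the tert-/- range of 0.54 to 2.47 CPM overlapped the wild type range of 1.27 to 3.31 CPM. The part of testis RNA in these values was not tested. The other SLC15 members are the gut and kidney peptide carriers SLC15A1 and SLC15A2 and SLC15A5, which was not tested. SLC15A1 (ENSDARG00000100315) ranged from 0.29 to 9.83 CPM, and tert-/- replicate 2 held the highest value.

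The arginine and lysine carrier gene slc7a1a (ENSDARG00000016439) stood at 5.49, 11.7, 7.99, 6.88 and 12.02 CPM in wild type replicates 1 to 5. In tert+/- replicates 1 to 5 it stood at 1.69, 12.2, 2.75, 6.35 and 5.55 CPM, and in tert-/- replicates 1 to 3 at 2.12, 3.93 and 4.76 CPM. The tert-/- libraries lay just below the lowest wild type library, and tert+/- spanned the range of both. For slc7a1a the log2 fold change was −1.29 (−2.50 to −0.08) in tert-/- against wild type, and −0.85 without the 3 libraries. On plain CPM the tert-/- values of 3.61 to 4.87 overlapped wild type, where replicate 1 had 4.40. Its paralog SLC7A1 (ENSDARG00000100227) had 2.44 ± 0.88 CPM in wild type and 2.59 ± 0.97 in tert-/-, a log2 fold change of 0.08 (−0.86 to 1.03), and 0.33 without the 3.

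Of the members with higher values in tert-/- than in wild type and a tert-/- mean of at least 1 CPM, those of smallest p were SLC6A6, SLC43A2 and SLC1A1. In SLC6A6 and SLC1A1 the higher mean rested on tert-/- replicate 1, while SLC43A2 (ENSDARG00000061120), described with tert+/-, had 2 of 3 tert-/- libraries above all of wild type. The taurine carrier gene SLC6A6 (ENSDARG00000012534) stood at 0.24, 0.86, 0.46, 0.48 and 1.06 CPM in wild type, at 0.33, 0.48, 0.56, 0.59 and 0.67 CPM in tert+/- and at 5.26, 0.50 and 0.35 CPM in tert-/-. Only tert-/- replicate 1 stood out. The log2 fold change of 1.75 (0.14 to 3.35) against wild type became −0.48 without that library and −0.23 without the 3. The better expressed paralog, SLC6A6 (ENSDARG00000098438), had 5.06 ± 0.57 CPM in wild type and 4.08 ± 0.89 in tert-/-.

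The glutamate carrier gene SLC1A1 (ENSDARG00000020212) had 0.38, 0.34, 1.43, 0.39 and 0.71 CPM in wild type, 0.60, 0.89, 1.25, 0.64 and 0.58 CPM in tert+/-, and 3.29, 0.57 and 0.41 CPM in tert-/-. The light chain gene SLC7A6 (ENSDARG00000054423), for exchange of cationic and neutral amino acids, had 0.86, 0.62, 1.47, 0.75 and 2.74 CPM in wild type, 0.70, 1.16, 0.69, 0.64 and 1.44 CPM in tert+/-, and 5.08, 0.92 and 0.88 CPM in tert-/-. In both genes tert-/- replicate 1 was the highest of 13 and the other tert-/- libraries lay within the wild type range. SLC1A1 had a log2 fold change of 1.14 against wild type, −0.37 without tert-/- replicate 1 and −0.34 without the 3. That of SLC7A6 was 1.31 in tert-/- against tert+/-, −0.02 without that library and −0.11 without the 3.

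**Figure D3:**
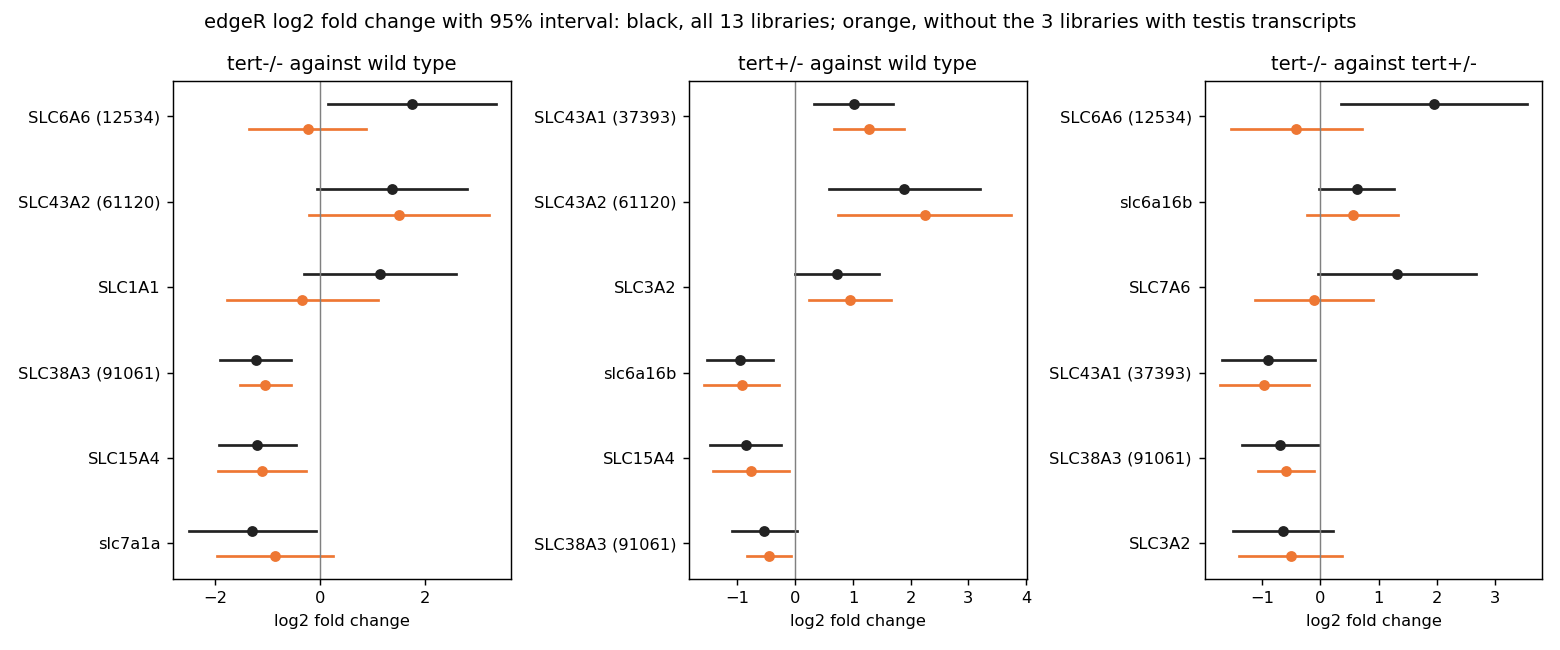
Log2 fold change (points) with 95% interval (lines) from edgeR for 6 members in each pairwise comparison, over 13 libraries (black) and without the 3 libraries with testis transcripts (orange). They are the 3 of smallest p in each direction among members with at least 1 CPM in the higher group. SLC38A3 and SLC43A1 keep their side of 0 in both, while SLC6A6 (ENSDARG00000012534) in tert-/- against wild type goes from 1.75 to −0.23.

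Of the members that lay higher in tert+/- than in wild type, those with the smallest p were 2 SLC43 genes and the heavy chain gene SLC3A2. SLC43A1 (ENSDARG00000037393), which codes for a carrier of leucine and other large neutral amino acids, stood at 3.93, 4.5, 3.91, 3.80 and 5.04 CPM in wild type replicates 1 to 5. In tert+/- replicates 1 to 5 it stood at 4.04, 15.2, 7.01, 10.8 and 5.71 CPM, and in tert-/- at 4.08, 5.35 and 4.44 CPM. On the TMM scale 4 of the tert+/- libraries lay above every wild type library. Of the tert-/- libraries 2 lay within the wild type range and replicate 2 just above it. In log2 fold change this was 1.02 (0.33 to 1.70) in tert+/- against wild type, 0.13 (−0.65 to 0.91) in tert-/- against wild type and −0.89 (−1.69 to −0.08) in tert-/- against tert+/-. On plain CPM tert-/- replicate 1 (9.37 CPM) lay above the wild type range of 3.09 to 5.38 CPM. There tert-/- replicates 2 and 3 (4.92 and 3.42 CPM) and tert+/- replicate 5 (4.85 CPM) lay within that range.

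Without the 3 libraries SLC43A1 differed by 1.27 in tert+/- against wild type, with edgeR adjusted p = 0.552 over 17970 genes, by 0.31 in tert-/- against wild type and by −0.96 in tert-/- against tert+/-. DESeq2 called it in that setting (log2 fold change 1.28, SE 0.31, DESeq2 adjusted p = 0.0230), as the 1 member called of 54 (1.85%, with 0.254% of all genes). Over all genes DESeq2 called 39 in that comparison, and in simulated counts of it 8 unchanged genes. Those simulated counts held changes in tert-/- alone, so the share of true changes recovered in tert+/- was not measured. Leaving out single libraries with edgeR gave 0.71 to 1.19, the lowest value without tert+/- replicate 2. Its paralog SLC43A1 (ENSDARG00000037748) lay the other way, at 10.6 ± 3.54 CPM in wild type and 8.16 ± 3.97 in tert+/-, a log2 fold change of −0.38 (−1.34 to 0.57), and −0.31 without the 3.

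SLC43A2 (ENSDARG00000061120), a related carrier gene, stood at 0.83, 0.43, 0.59, 0.54 and 1.5 CPM in wild type, at 2.95, 1.25, 6.45, 1.78 and 1.70 CPM in tert+/- and at 2.6, 2.91 and 0.38 CPM in tert-/-. On the TMM scale every tert+/- library except replicate 2 lay above all wild type libraries, and tert-/- replicate 3 lay below them all. On plain CPM tert+/- replicates 2, 4 and 5 (1.15, 1.52 and 1.44 CPM) lay below wild type replicate 5 (1.61 CPM). The log2 fold change of this SLC43A2 gene was 1.89 (0.58 to 3.20) in tert+/- against wild type and 2.24 without the 3 libraries. In tert-/- against wild type it was 1.37 (−0.06 to 2.80), 1.51 without the 3 libraries and 0.96 to 1.85 with single libraries left out. The paralog SLC43A2 (ENSDARG00000036848), at far higher level, ranged from 12.1 to 129.0 CPM over the 13 libraries, tert+/- replicate 2 being the highest, with means of 36.3, 45.9 and 25.4 CPM and a log2 fold change in tert+/- against wild type of 0.34 (−0.89 to 1.57), and 0.43 without the 3.

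The heavy chain gene SLC3A2 (ENSDARG00000037012) stood at 32.1, 14.9, 32.3, 23.1 and 31.8 CPM in wild type, at 26.5, 72.3, 25.02, 56.5 and 42.2 CPM in tert+/- and at 18.1, 33.5 and 34.2 CPM in tert-/-. Of the tert+/- libraries 3 lay above wild type and the other two within it. The log2 fold change was 0.73 (0.00 to 1.46) in tert+/- against wild type, 0.95 without the 3 libraries and 0.49 without tert+/- replicate 2, and it was −0.64 (−1.49 to 0.21) in tert-/- against tert+/-, and −0.51 there without the 3. The second heavy chain gene of this name, slc3a2a, had means of 3.55, 3.56 and 3.02 CPM and did not differ detectably in tert+/- against wild type (0.00, −0.94 to 0.95, and −0.02 without the 3).

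The orphan carrier gene slc6a16b (ENSDARG00000102377) lay lower in tert+/-. It stood at 1.28, 1.94, 1.21, 1.29 and 1.59 CPM in wild type, at 0.79, 0.60, 0.60, 0.72 and 1.06 CPM in tert+/- and at 1.35, 1.24 and 0.91 CPM in tert-/-. All 5 tert+/- libraries lay below all wild type libraries on the TMM scale, the 1 member of 70 (1.43%, with 0.34% of all genes) for which this held, and on plain CPM tert+/- replicate 1 (1.61 CPM) lay within the wild type range. The log2 fold change was −0.95 (−1.52 to −0.38), and −0.92 without the 3 libraries. In tert-/- against wild type it was −0.32 (−0.97 to 0.34), and −0.37 without the 3. Its paralog slc6a16a had means of 4.04, 2.35 and 2.62 CPM, and its value in tert+/- against wild type was −0.78 (−1.62 to 0.05).

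Without the 3 libraries the share of members with a small p was furthest from that of all genes in tert+/- against wild type. There 14 of 61 members (23.0%, with 8.96% of all genes) had an unadjusted edgeR p under 0.05, against 3 (4.92%, with 3.39%) in tert-/- against wild type, 3 (4.92%, with 2.58%) in tert-/- against tert+/- and 4 (6.56%, with 4.75%) in the trend. None of the 61 passed the adjusted threshold by edgeR (0 of 61, 0.0% of all genes). The 7 with higher values were SLC3A2, SLC43A1 (ENSDARG00000037393), SLC43A2 (ENSDARG00000061120), the glycine carrier SLC6A9 (log2 fold change 1.06), slc36a4 (0.60), SLC6A18 (1.88) and the low SLC38A3 paralog (ENSDARG00000027065, 1.04). The 7 with lower values were SLC38A3 (ENSDARG00000091061), SLC15A4, slc6a16b, slc6a16a (−0.74), slc6a14 (−1.13), SLC38A10 (−0.55) and SLC43A3 (ENSDARG00000059682, −0.82). These 14 were listed after their values were seen. Higher and lower values were equal in number among them. Counts were few in SLC6A18, at 1 to 6 per wild type library and 7 to 15 per tert+/- library without the 3. They were also few in slc6a14, at 11 to 34 and 7 to 11. For SLC38A10 wild type replicate 1 stood out at 24.9 CPM. Its wild type replicates 2 to 4 held 10.1 to 12.4 CPM and tert+/- replicates 2 to 5 held 9.14 to 11.1 CPM.

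Of the pairwise comparisons, tert-/- against wild type had the median log2 fold change of tested members closest to that of all genes. The median was 0.04 (all genes −0.03) in tert-/- against wild type, 0.13 (all genes 0.00) in tert+/- against wild type and −0.11 (all genes 0.00) in tert-/- against tert+/-. Without the 3 libraries these medians were −0.01, 0.21 and −0.28, with all genes at −0.02, 0.00 and −0.01. The comparisons of tert+/- with wild type and of tert-/- with tert+/- share the tert+/- libraries. Positive values were held by 43 of 70 members in tert+/- against wild type (61.4%, with 50.2% of all genes) and by 28 of 70 in tert-/- against tert+/- (40.0%, with 50.3%). With the 3 libraries left out they were held by 41 of 61 (67.2%, with 50.4%) and 20 of 61 (32.8%, with 48.9%).

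By family, the medians in tert+/- against wild type ranged from −0.35 in SLC15 (4 tested) to 0.68 in SLC43 (6 tested), and were −0.37 and 0.85 in these families without the 3 libraries. The 6 tested cationic SLC7 carriers had a median of 0.51, of which 5 were positive, slc7a1a being the exception, and without the 3 the median was 0.45 with 5 of 6 positive. In tert-/- against tert+/- all 6 were negative (49.7% of all genes were), with a median of −0.40, and all 6 were so without the 3 (51.1% of all genes were), with a median of −0.61. The largest family median in tert-/- against wild type was that of the SLC7 light chains, which were positive in 6 of 6 (47.7% of all genes were) with a median of 0.83. Of the 5 tested without the 3, 4 were positive (47.2% of all genes were) and the median was 0.17. The 8 tested GABA, taurine, creatine and betaine carriers had medians of −0.20 in tert-/- and −0.10 in tert+/- against wild type, and the 6 tested without the 3 had −0.04 and 0.09. The creatine carrier SLC6A8 had the lowest value in tert-/- against wild type, −1.95 (−4.44 to 0.55), which was 0.06 without the 3 libraries.

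**Figure D4:**
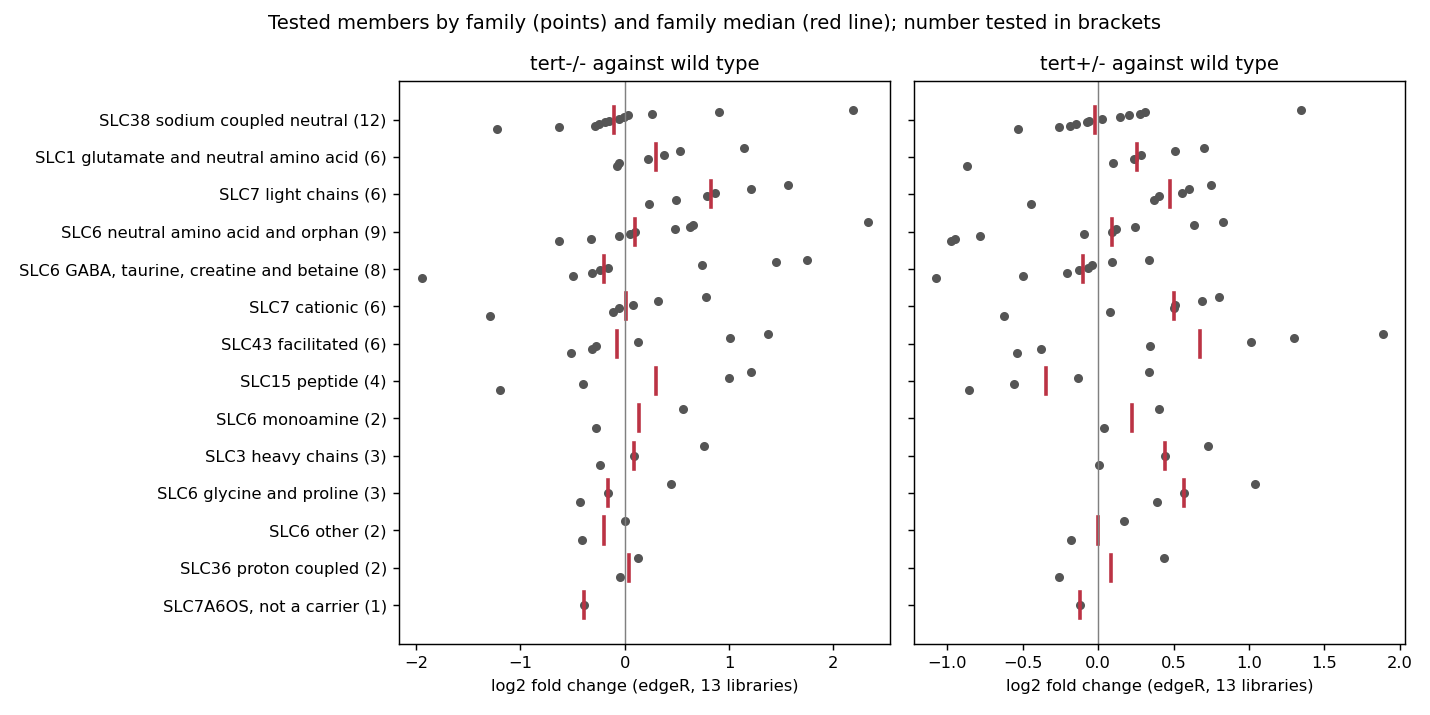
Log2 fold change of the 70 tested members (points) by family in tert-/- and in tert+/- against wild type from edgeR over 13 libraries, with the family median as a red line and the number tested in brackets. Points lie on both sides of 0 in the large families, and the SLC43 median in tert+/- is 0.68.

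Above a mean of 1 CPM, the members had a larger median spread between libraries than all genes. The sets were not matched on level beyond this cut. Among the 46 members with a mean of at least 1 CPM, the median coefficient of variation was 45.1% over 13 libraries and 36.9% over the 10 without testis transcripts, against 35.6% and 24.96% for the 13777 genes with such a mean. Within wild type it was 35% against 32.7%. In tert+/- replicate 2, 15 of the 70 members had their highest of 13 values (21.4%, with 8.01% of all genes), and the summed member level was highest there, at 899.2 TMM-scaled CPM with 359.9 to 810.2 elsewhere. On plain CPM it was 7 members (10%, with 4.72%), and the sum of 829.3 in that library lay beside 826.1 in tert-/- replicate 1, which had the lowest sum on the TMM scale. The 15 included SLC3A2, both SLC43A1 (ENSDARG00000037393) and SLC43A2 (ENSDARG00000036848), SLC38A4, slc7a1a, slc7a2, SLC6A9 and SLC1A2. A list of 24 nerve and glia markers was also highest in this library, at 1361 plain CPM summed with 445.7 to 940.5 elsewhere. So was a list of 16 endothelium markers on plain CPM, at 424.8 summed with 131.6 to 399.6 elsewhere, wild type replicate 1 holding the 399.6. The TMM factors were 0.922 in tert+/- replicate 2 and 0.802 in wild type replicate 1. On the TMM scale the endothelium sum was therefore higher in wild type replicate 1. The part of either tissue in the member values was not tested.

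In tert-/- replicate 1, 15 members (21.4%, with 18.4% of all genes) had their highest value on the TMM scale. All 3 libraries with testis transcripts lay above all other 10 for 15 members on plain CPM (21.4%, with 32.2% of all genes) and for 5 on the TMM scale (7.14%, with 17.3%). The 5 were SLC7A10 (ENSDARG00000051730), the serotonin carrier SLC6A4, SLC38A11, SLC6A13 and SLC6A15, none with a wild type mean above 0.33 CPM. All 3 lay below all other 10 for 5 members on the TMM scale (7.14%, with 10.5% of all genes) and for none on plain CPM (0 of 70, with 0.222%). They included SLC38A2, SLC43A1 (ENSDARG00000037748) and slc6a16a, with wild type means of 196.4, 10.6 and 4.04 CPM.

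**Figure D5:**
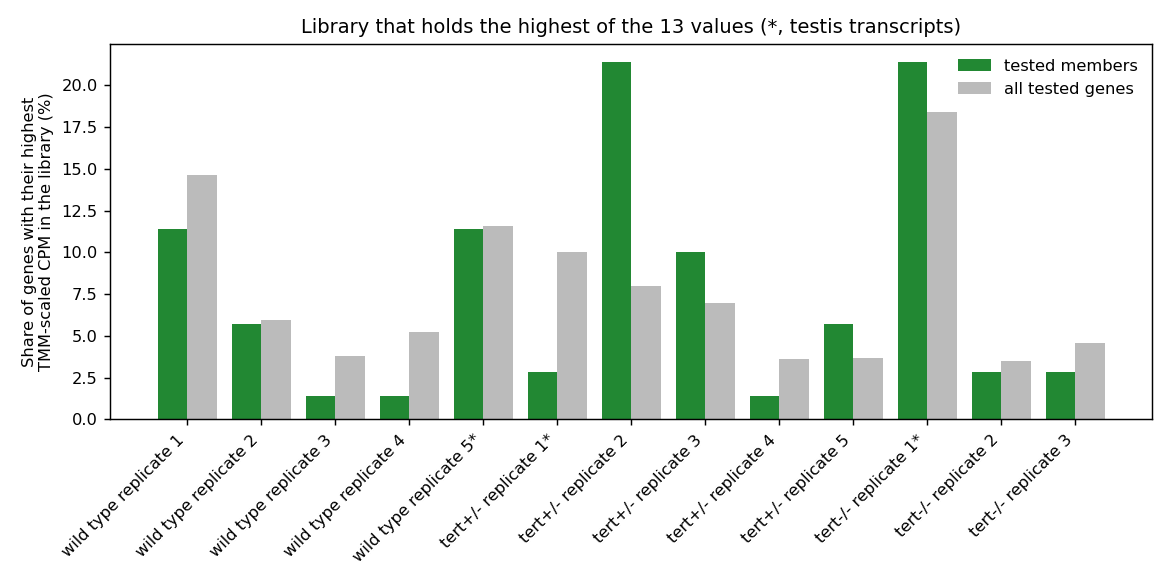
Share of the 70 tested members (green) and of all 19407 tested genes (grey) whose highest of 13 TMM-scaled CPM values fell in each library, in percent from 0. For members it was 21.4% both in tert+/- replicate 2 (8.01% of all genes) and in tert-/- replicate 1 (18.4%), and libraries with testis transcripts carry a star.

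Genes that sense or use amino acids were read from the same fit. No gene of 5 lists passed the threshold in any comparison. The list of 24 cytosolic aminoacyl-tRNA synthetase genes, whose enzymes charge tRNAs, was drawn up to take in AIMP1, AIMP2 and EEF1E1, which are not synthetases. Its genes had positive values in 17 cases in tert-/- (47.7% of all genes) and in 20 in tert+/- against wild type (50.2% of all genes), with medians of 0.24 and 0.22. Without the 3 libraries 23 of 24 were positive in each (47.2% and 50.4% of all genes), with medians of 0.41 and 0.39, while edgeR's unadjusted p was under 0.05 for 6 (25%, with 3.39% of all genes) and 9 of them (37.5%, with 8.96%). These 2 comparisons share the wild type libraries. The tyrosine enzyme gene YARS1 had 20.4 ± 3.69 CPM in wild type and 31.3 ± 11.5 in tert+/- (0.62, and 0.83 without the 3), and the threonine enzyme gene TARS1 23.8 ± 2.61 and 34.5 ± 9.67 (0.54, and 0.68 without the 3).

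Beside the remaining lists, 50.2% of all genes were positive in tert+/- and 47.7% in tert-/- against wild type. Without the 3 libraries these shares were 50.4% and 47.2%. The 41 genes of amino acid sensing by mTORC1 had 14 positive and 27 negative values in tert+/- against wild type (median −0.11) and 19 and 22 in tert-/- (median −0.07). Without the 3, 40 were tested, with 14 positive and 26 negative in tert+/- (median −0.09) and 15 and 25 in tert-/- (median −0.11). SEC13, of a complex that relieves inhibition of mTORC1, stood at 20.8 ± 0.57 CPM in wild type and 26.7 ± 2.01 in tert+/- (log2 fold change 0.36, and 0.37 without the 3), and the inhibitory subunit gene DEPDC5 at 26.5 ± 5.01 and 19.7 ± 1.77 (−0.43, and −0.48 without the 3). Of 32 tested GCN2 and ATF4 response genes 23 were positive in tert+/- (median 0.16) and 19 in tert-/- (median 0.03), and without the 3 libraries 21 (median 0.16) and 20 (median 0.05). Among them PSPH, the last enzyme of serine synthesis, stood at 2.05 ± 0.60 CPM in wild type and 3.19 ± 0.31 in tert+/- (0.63, and 0.50 without the 3), and the stress gene nupr1a at 8.32 ± 6.47 and 4.01 ± 1.29 (−1.05, and −0.64 without the 3).

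Of 26 genes of glutamine and glutamate metabolism 14 were positive in tert-/- (median 0.05) and 13 in tert+/- (median −0.02) against wild type, and without the 3 libraries 15 (median 0.11) and 15 (median 0.09). The glutamine synthetase gene GLUL stood at 11.04 ± 5.66 CPM in wild type, 20.2 ± 8.59 in tert+/- and 14.3 ± 5.73 in tert-/- (0.87 in tert+/- against wild type, and 0.73 without the 3), and GFPT1, which uses glutamine to make hexosamines, had 0.83 in tert-/- and 0.38 without the 3 libraries. Of 28 genes of branched chain amino acid catabolism 19 were negative in tert-/- (median −0.10) and 20 in tert+/- (median −0.14). In tert-/- the majority turned without the 3 libraries, to 9 negative and 19 positive (median 0.12), and in tert+/- there were then 15 negative and 13 positive (median −0.09). KLF15, a factor that drives this catabolism in mammals, stood at 5.61 ± 1.76 CPM in wild type and 3.31 ± 1.20 in tert+/- (−0.76, and −0.79 without the 3), and the phosphatase gene ppm1ka, whose mammalian counterpart activates the branched chain ketoacid dehydrogenase, at 5.01 ± 2.99 and 2.50 ± 1.46 (−1.01 with and −1.002 without the 3).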

How the data were processed

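Per the labels, RNA of 13 muscle samples was made into libraries with a TruSeq RNA kit. The authors deposited a table of whole-number counts per gene, not normalized, and a table of RPKM values. The submitters' processing notes name bcl2fastq 1.8.4, STAR 2.4.1d, featureCounts 1.4.6-p4 and the GRCz10 genome. The sources used here do not give the annotation release, the strand setting or how multiply mapped reads were treated, so reads of near-identical paralogs, overlapping and antisense genes cannot be told apart. The lengths implied by the deposited RPKM values were constant over libraries only if the 13 totals were applied in turn down the table (largest coefficient of variation 0.0563% over 2227 genes, against a median of 67.8% with own totals), so that 7.69% of values were divided by their own library's total. RPKM was therefore recalculated to compare genes, from counts, own totals and the gene lengths implied by the deposited RPKM. Apart from these lengths, the deposited RPKM entered only alternatives.

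Symbols came from the gene name table of the reference and from RefSeq. Tests used edgeR 4.0.16 (R 4.3.3) with TMM factors, the default expression filter and a mean per genotype, and a second fit took the count of mutant alleles (0, 1 or 2) as a slope. CPM was computed from counts with these factors unless called plain. Alternatives were DESeq2 1.42.0, limma 3.58.1 (voom with sample quality weights, and the log2 of RPKM plus 0.5 or 0.1), robust dispersion, other factors and filters, fits of the compared genotypes alone and leaving out each library. Leaving out the 3 libraries with testis transcripts was added after the data were seen. The scripts were tested on simulated counts with 200 changed genes. No pair of libraries held identical counts.

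Members, gene lists and tests were chosen with earlier results of these data known. Values per library are given for SLC38A3, SLC15A4 and the 3 members of smallest p in each direction and comparison with at least 1 CPM in the higher group. Group means are given for the other members among the 12 of highest wild type RPKM and for tested paralogs of named members, counts and examples for the others, and the 2 genes of smallest p for each list of related genes. The totals of 10.6 to 47.5 M counts and the spread between libraries both bear on the precision. For SLC15A4 and other genes with few counts, counting error was not separated from that spread. The tables used here hold no columns of the authors' own comparisons.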

Additional observations from a re-analysis of the deposited data

How the results depend on the processing

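No member was called by edgeR, by limma or by DESeq2 over 13 libraries, nor without any single library (0 to 0 in each of the 4 comparisons). DESeq2 without the 3 libraries with testis transcripts called 1 member in tert+/- against wild type and 1 in the trend. Without normalization factors the median log2 fold change of all genes moved to 0.49 in tert-/- against wild type, 0.29 in tert+/- against wild type, 0.25 in tert-/- against tert+/- and 0.26 in the trend, and values on that scale are relative to these shifts. The sign of SLC6A6 (ENSDARG00000012534) in tert-/- against wild type turned with voom (−0.081), without tert-/- replicate 1 (−0.48) and without the 3 libraries (−0.23 with edgeR, −0.23 with DESeq2), and single libraries left out gave −0.48 to 2.21. In tert-/- against tert+/- it turned in the same settings (−0.13, −0.28, −0.41 and −0.41), with −0.28 to 2.42 over single libraries left out. SLC1A1 in tert-/- against wild type turned likewise (−0.021, −0.37, −0.34 and −0.34), with −0.37 to 1.69. SLC7A6 in tert-/- against tert+/- turned without tert-/- replicate 1 (−0.017, single libraries left out giving −0.017 to 1.67) and without the 3 libraries (−0.11 with edgeR, −0.11 with DESeq2). SLC15A4 in tert-/- against tert+/- turned on the deposited RPKM (0.28 with a pseudocount of 0.5 and 0.48 with 0.1), whose library totals are shifted. The other 523 values of single members under alternatives kept their sign and their side of the threshold, and SLC38A3 in the trend and SLC43A1 in tert+/- against wild type crossed it by DESeq2 without the 3 libraries.

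Counts of members with an unadjusted p under 0.05 moved by over 1.5 times in several settings. In tert-/- against wild type 4 became 9 with voom (12.9%, with 4.32% of all genes), 9 without factors (12.9%, with 6.09%) and 1 on recalculated RPKM (1.43%, with 1.48%), and 2 to 10 without single libraries. In tert+/- against wild type 5 became 16 with voom (22.9%, with 14.6%), 8 in the fit of both genotypes alone (14%, with 3.45%), 1 on deposited RPKM plus 0.5 (1.43%, with 2.37%), 14 without the 3 libraries (23%, with 8.96%) and 17 of 85 with DESeq2 without them (20%, with 7.23%), and 4 to 9 without single libraries. In tert-/- against tert+/- 3 became 6 with DESeq2 (7.32%, with 1.85%) and with voom (8.57%, with 2.53%), 5 with RLE factors (7.14%, with 1.64%) and on deposited RPKM plus 0.5 (7.14%, with 7.12%), 1 on recalculated RPKM (1.43%, with 0.546%) and in the fit of both genotypes alone (1.59%, with 1.36%), and 1 to 8 without single libraries. In the trend 4 became 8 with voom (11.4%, with 8.35%), 9 without factors (12.9%, with 7.56%), 7 on deposited RPKM plus 0.1 (10%, with 9.34%) and with DESeq2 without the 3 libraries (8.24%, with 4.17%), 1 on recalculated RPKM (1.43%, with 2.28%), and 2 to 9 without single libraries. The causes were not tested. The summed wild type member level was 645.6 TMM-scaled CPM, with an SD of 103.8 CPM between fish, and 567.7 plain CPM. Both sums are of the same libraries. No paired analysis was possible because the labels carry no replicate numbers or pairing.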
